A study of Ictidomys tridecemlineatus with 31 samples.

Results

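Kidney RNA was compared between 5 spring dark (SpD) and 5 interbout aroused (IBA) 13-lined ground squirrels, which made up 10 of the 31 animals in the deposited table. Members were chosen by their state label alone, and every difference is given as SpD minus IBA over all 12863 genes. The study followed the kidney of this hibernator over 6 states of the year and of the torpor-arousal cycle, using body temperature recorded by an implanted device to time collection. Each sample was polyadenylated RNA of 1 kidney, and each kidney came from a different animal, so the replicates are animals.

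Both groups were warm when the kidney was collected, and both were kept in the dark, cold hibernaculum. IBA animals were in winter and had rewarmed from torpor only a few hours earlier. SpD animals had ended their last torpor bout days to weeks before and had stayed warm since, without yet being moved to light or warmth. No genotype or drug differed between the groups. Each group held 3 libraries of experiment 1 (TruSeq kit) and 2 of experiment 2 (Nugen kit), and each held 3 females and 2 males. SpD was K3, K6, and K9 in experiment 1 and K84 and K130 in experiment 2, with K9 and K130 the males. IBA was K1, K4, and K7 in experiment 1 and K104 and K171 in experiment 2, with K4 and K7 the males.

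A hibernator lives on stored fat through the winter, and in torpor its kidney is cold, barely perfused, and makes almost no urine. At each arousal, blood flow and filtration return within hours, which resembles the reperfusion that follows a blocked renal artery in medicine. The proximal tubule is the segment most easily hurt by such an episode. It is also where the kidney reabsorbs amino acids, glucose, and phosphate, breaks down amino acids, and makes glucose.

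The values are batch-corrected regularized log (rlog) values on the log2 scale, so that a difference of 1 is a 2-fold change. The rlog draws low counts toward the mean, which makes differences of weakly expressed genes too small. The median of the 10 animals lay between 9.79 and 9.85, and their correlations over genes between 0.938 and 0.99. Sequencing depth is unknown because the table holds no counts, so errors are those of the spread between animals. All 10 proximal tubule markers were measured, and none of 9 adrenal, 5 adipocyte, and 4 neutrophil markers was in the table. K130 stood apart among SpD. Its mean over 10 proximal tubule markers was 13.38, against 14.73 to 15.43 in the other SpD and 13.89 to 14.88 in the IBA animals, and its mean over 7 inner medulla and thin limb markers was 12.07, against 10.34 to 11.35 and 9.98 to 11.71. K104 was the IBA animal with the lowest proximal tubule mean (13.89) and the highest inner medulla mean (11.71). The part that the tissue piece played in the results was not tested. Counts are also given without K130, which does not balance the pieces, since the other SpD proximal tubule means lay mostly above those of IBA. In such bulk RNA, fewer cells of a type and less RNA per cell cannot be told apart.

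Of the 12863 genes, 161 differed at q under 0.001 (1.25%), 107 of them higher in SpD (0.832%) and 54 lower (0.42%). The q value is the Benjamini-Hochberg adjusted p of a limma model of state, sex, and experiment in 29 animals of all 6 states. At q under 0.05, 834 genes were higher in SpD (6.48%) and 697 lower (5.42%), and these shares are the background for each gene list below. Differences were small for most genes: the median size was 0.39 among the 1531 genes at q under 0.05, and 73 higher and 20 lower genes reached 2-fold. The 95% interval of the difference lay within 1 log2 unit of 0 for 94.8% of genes. Without K130 the counts at q under 0.05 were 1019 (7.92%) and 776 (6.03%), and 1220 of the 1531 genes were called both times. In a model of only the 10 SpD and IBA animals no gene passed q under 0.001, whereas 2698 had an unadjusted p under 0.05, and 153 of the 161 genes passed q under 0.05.

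**Figure D1:**
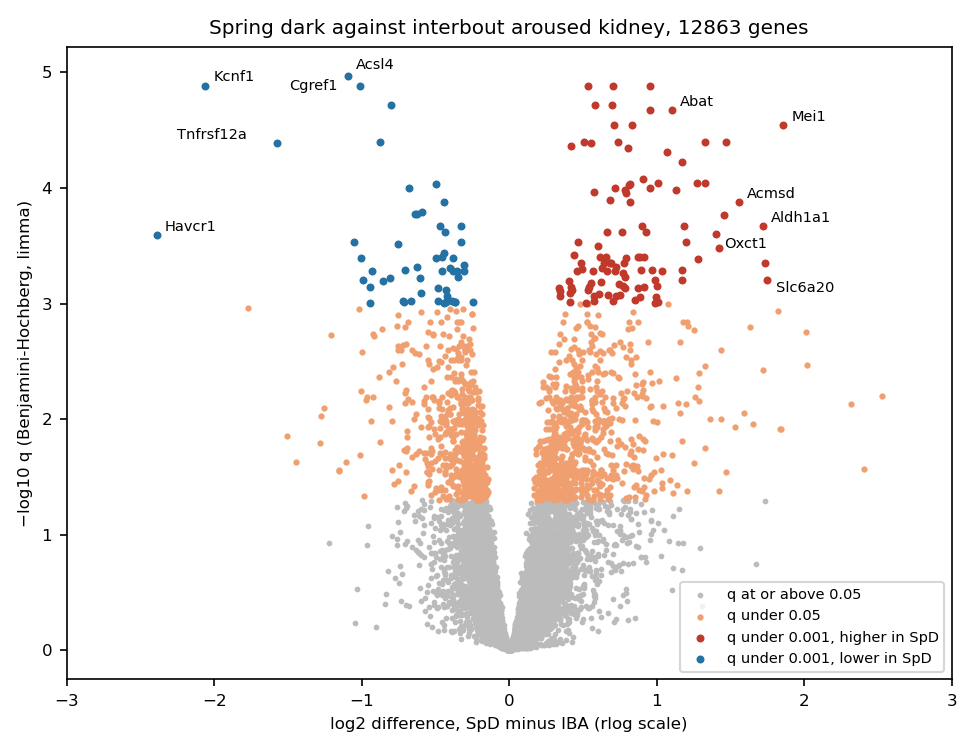
Each point is 1 of 12863 genes, placed by its log2 difference (SpD minus IBA, horizontal) and the negative log10 of its q value (vertical), with genes at q under 0.001 in red where SpD was higher and blue where SpD was lower. The 107 red genes outnumber the 54 blue ones, and Havcr1 at -2.39 and Kcnf1 at -2.06 lie farthest left among the blue.

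The animals differed in how far along this axis they lay. For each animal, the genes called at q under 0.001 without it were taken, and its value was placed on a line from the mean of the other IBA animals (0) to the mean of the other SpD animals (1). The median position was 1.01 in K3, 0.924 in K6, 0.906 in K84, 0.693 in K9, and 0.392 in K130. The IBA animals lay at -0.121 (K7), 0.0252 (K4), 0.153 (K104), 0.238 (K171), and 0.26 (K1). Both SpD males, K9 and K130, lay closer to IBA than the 3 SpD females did. K130 also had the lowest proximal tubule mean of all animals compared (13.38), so sex and tissue piece cannot be told apart in it. Each position rests on its own gene set, from 58 genes for K3 to 198 for K130 among SpD. The part of sex was not tested. K130 lay at 0.288 for the genes that were higher in SpD and at 0.538 for those that were lower.

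Genes of tubule injury and repair were lower in SpD than in IBA. Of 31 measured members, 9 were lower at q under 0.05 (29%, against 5.42% of all genes) and none was higher, and the count was the same without K130. The 9 estimates were negative within each experiment. Of these genes Havcr1, Clu, Vcam1, and Krt18 passed q under 0.05 in experiment 1 alone, and only Krt8 and Lgals3 in experiment 2 alone. The median difference of the 31 was -0.30, against -0.01 over all genes. The list was written with earlier results of these data known, so its direction is not independent evidence.

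Havcr1 (gene8795) encodes KIM-1, a membrane receptor that injured proximal tubule cells display and that is used in urine as an injury marker. Its rlog value was 6.58 in K9, 5.92 in K3, 5.46 in K6, 6.49 in K84, and 6.46 in K130. In IBA it was 8.71 in K4, 10.30 in K7, 8.48 in K1, 7.35 in K104, and 8.02 in K171. The groups did not overlap, and K7 stood highest. The difference was -2.39 (SE 0.37, q = 0.00026), a value 5.24-fold higher in IBA, and it was the largest decrease among the genes at q under 0.001. It was -2.78 within experiment 1 (q = 0.022) and -1.33 within experiment 2, where it did not pass (q = 0.11). In other states Havcr1 read 7.30 ± 0.50 (SD, n = 4) in summer active (SA), 7.15 ± 0.89 (n = 5) in entrance to torpor (Ent), and 7.14 ± 0.37 (n = 5) in late arousing (LAr) animals. All SA and LAr animals were in experiment 2, so that state and experiment cannot be told apart in these levels, which are given here and below as descriptions only.

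Clu (gene19692) makes clusterin, a secreted chaperone released by damaged tubules. It read 12.25, 12.61, 12.29, 12.48, and 13.05 in K9, K3, K6, K84, and K130, and 14.27, 14.66, 14.63, 14.91, and 13.05 in K4, K7, K1, K104, and K171. K130 and K171 met at 13.05, and the other 8 animals were well separated. The difference was -1.77 (SE 0.33, q = 0.0011). Tnfrsf12a (gene20264), the receptor of the cytokine TWEAK, averaged 9.12 ± 0.28 over SpD (SD, n = 5) against 10.70 ± 0.56 over IBA, with no overlap (-1.58, q = 4.1e-05).

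Vcam1 (gene22140), an adhesion molecule that also marks proximal tubule cells failing to repair, ran from 10.41 to 10.97 in SpD and from 11.16 to 12.61 in IBA (-1.27, q = 0.0094). Lgals3, which encodes the lectin galectin-3, ran from 10.66 to 11.16 in SpD and from 11.22 to 12.12 in IBA (-0.75, q = 0.00031). The keratins of simple epithelia moved by near equal amounts. Krt8 averaged 12.63 ± 0.11 over SpD (SD, n = 5) against 13.33 ± 0.08 over IBA without overlap (-0.70, q = 0.00051), and Krt18 was 10.66 ± 0.38 and 11.37 ± 0.25 (-0.71, q = 0.0059), with K84 above K171. Sox9, a transcription factor of regenerating tubule cells, differed by -0.55 (q = 0.0096), although K3 (10.05) lay above K104 (9.71).

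A pair of further members rested on few animals. Timp1, an inhibitor of matrix proteases, differed by -1.01 (q = 0.021) and was not called without K7 (q = 0.078) or without K9. Spp1, the secreted protein osteopontin, differed by -0.99 (q = 0.046), overlapped between the groups, and lost its call in 7 of 10 leave-outs. Lcn2, which encodes the injury marker NGAL, read 9.29 to 11.54 in SpD and 9.15 to 12.95 in IBA and did not pass the test (-1.03, 95% interval -2.30 to 0.23, q = 0.29), although it did without K171 (-1.69, q = 0.044). Dcdc2 (-0.35, q = 0.058, and -0.47 without K171, q = 0.011) and Sema5a (-0.02, q = 0.97), also named in kidney disease, did not pass either.

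**Figure D2:**
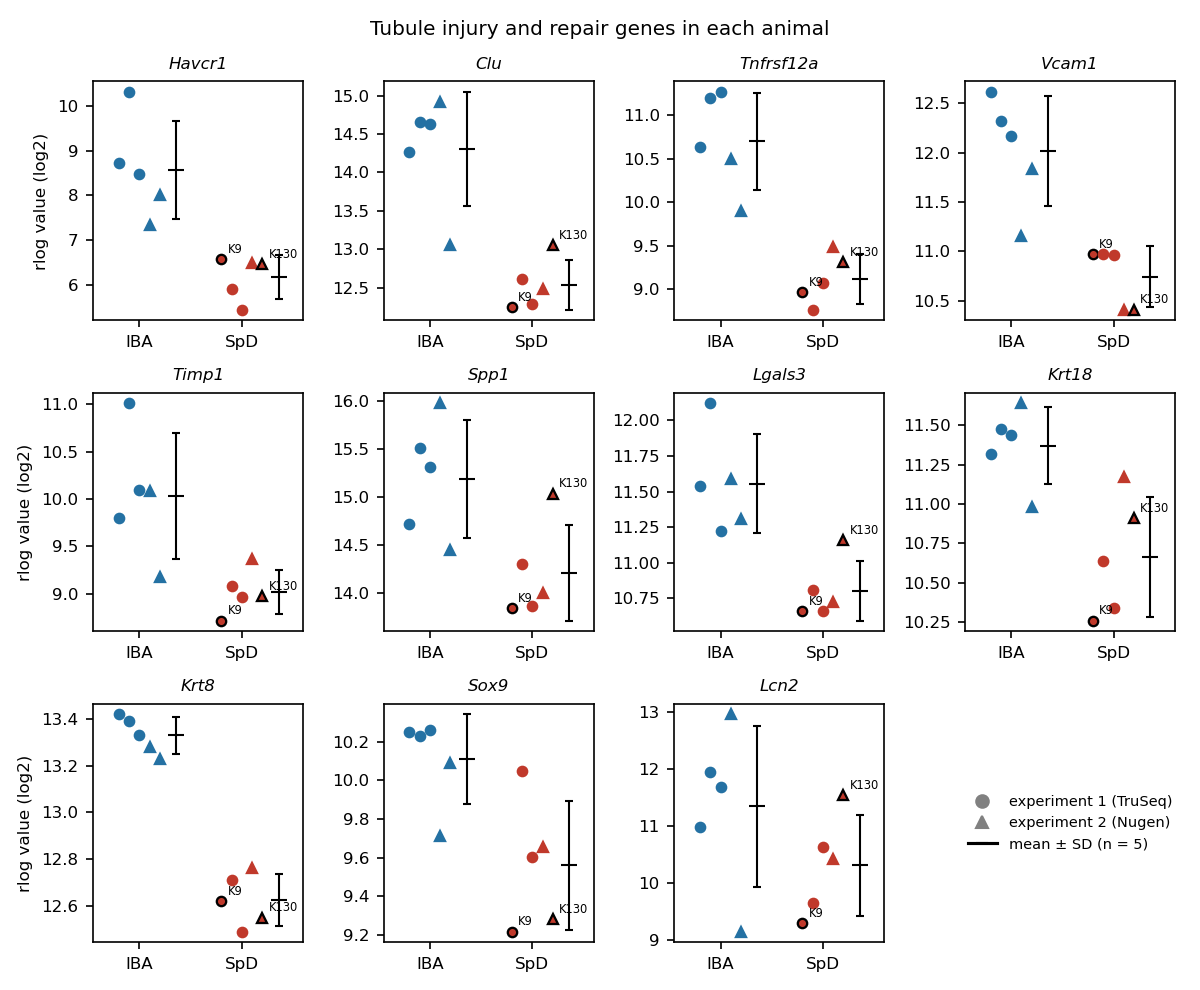
Each panel shows the rlog value (log2 scale, vertical) of 1 injury or repair gene in the 5 IBA and 5 SpD animals, with circles for experiment 1, triangles for experiment 2, outlined points for K9 and K130, and bars for mean ± SD. Havcr1, Tnfrsf12a, Vcam1, Lgals3, and Krt8 separate the groups completely, whereas Lcn2 spans 9.15 to 12.95 within IBA.

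Markers of macrophages were read beside these genes. None of the 6 measured macrophage markers (of 8 asked) passed q under 0.05, but all 6 estimates were negative, with a median of -0.305. Their mean per animal was 7.70 to 8.34 in SpD and 7.98 to 9.04 in IBA, where K7 was highest. C1qa, a subunit of the complement initiator C1q that macrophages make, read 7.82 ± 0.38 (SD, n = 5) in SpD and 8.36 ± 0.47 in IBA (-0.54, q = 0.057). Its q was 0.0087, 0.037, and 0.0495 without K84, K171, and K104, but 0.13 without K130 and 0.28 with only the 10 animals. C1qa did not pass without K7 either, which stood apart in IBA (9.18, against 8.06 to 8.33). The difference was -0.86 within experiment 1 (q = 0.12) and -0.03 within experiment 2 (q = 0.96). C1qb differed by -0.45 (q = 0.15). The part of these cells in the injury genes was not tested. Of 10 lymphocyte markers only the B cell gene Cd79a was in the table (0.13, q = 0.81). It was low in K130 (7.85), and without that animal it was higher in SpD (0.58, q = 0.035).

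The other large decreases were of genes with diverse roles. Kcnf1 (gene10545), a modifying subunit of voltage-gated potassium channels, averaged 6.12 ± 0.38 over SpD (SD, n = 5) against 8.18 ± 0.55 over IBA (-2.06, q = 1.3e-05). No SpD animal exceeded 6.68 and no IBA animal was under 7.59. In the other states Kcnf1 was 6.05 ± 0.30 in SA (n = 4), 7.65 ± 0.42 in Ent (n = 5), and 8.04 ± 0.48 in LAr (n = 5). Acsl4 (gene6883), which activates arachidonic acid and thereby shapes the membrane lipids oxidized in ferroptosis, had the lowest q of all genes. It read 11.17 to 11.72 in SpD and 12.17 to 12.78 in IBA (-1.09, SE 0.11, q = 1.1e-05). Cgref1, a secreted calcium-binding protein, differed by -1.01 (q = 1.3e-05), and Adgrg6, an adhesion receptor coupled to G proteins, by -1.01 (q = 0.0004). Rasl10a, a small GTPase, was 6.96 ± 0.20 in SpD and 7.84 ± 0.14 in IBA (-0.88, q = 4.0e-05), without overlap. A transcript similar to the serpin SERPINB9 (SERPINB9_like_gene24731, -1.05, q = 0.0003), Trim47 (-0.94, q = 0.00071), Tmem140 (-0.94, q = 0.00099), and Snx10 (-0.81, q = 0.0006) completed the named decreases.

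Oxct1 and Bdh1, which let a tissue burn ketones, were higher in SpD. Of 33 genes of fatty acid oxidation and ketone metabolism, 7 were higher in SpD (21.2%) and 3 lower (9.09%), and 9 and 4 without K130. The median over the list was -0.01.

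Oxct1 (gene8942) encodes the succinyl-CoA transferase that is needed to use ketones. It read 12.88 in K9, 13.53 in K3, 13.60 in K6, 14.15 in K84, and 14.35 in K130, against 12.24 in K4, 11.89 in K7, 12.74 in K1, 12.59 in K104, and 12.03 in K171. All SpD animals lay above all IBA animals, with K9 nearest to them. The difference was 1.40 (SE 0.22, q = 0.00025). It was 0.91 within experiment 1 and 2.02 within experiment 2. Bdh1, the dehydrogenase that interconverts the 2 circulating ketone bodies, averaged 11.77 ± 0.48 over SpD (SD, n = 5) against 10.86 ± 0.14 over IBA (0.92, q = 0.00039). K9 (11.01) alone among the SpD animals fell within the IBA range. Acat1, the thiolase of the same pathway, was higher by 0.44 (q = 0.0033), with K130 and K171 meeting at 13.37.

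K9 was high in several lipid genes. Ehhadh, a peroxisomal fatty acid oxidation enzyme, read 15.85 in K9 against 14.05 to 14.53 in the other SpD animals and 14.59 to 15.35 in IBA (-0.42, q = 0.26, and -0.72 without K9, q = 0.011). Creb3l3, a fasting-activated transcription factor chosen after its values were seen, read 11.90 in K9, 9.48 to 10.76 in the other SpD animals, and 10.93 to 12.02 in IBA (-1.15, q = 0.027, lost in 6 of 10 leave-outs). Plin2, the coat protein of lipid droplets, read 12.87 in K9 and 11.41 to 12.21 in the others, against 12.69 to 13.45 in IBA (-0.97, q = 0.0068). Over 19 targets of the fasting receptor PPAR alpha, a list chosen after seeing values, the mean was 12.91 in K9, 11.64 to 12.17 in the other SpD animals, and 12.33 to 12.53 in IBA. K9 was thus above all IBA animals and the other 4 SpD animals below all of them.

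**Figure D3:**
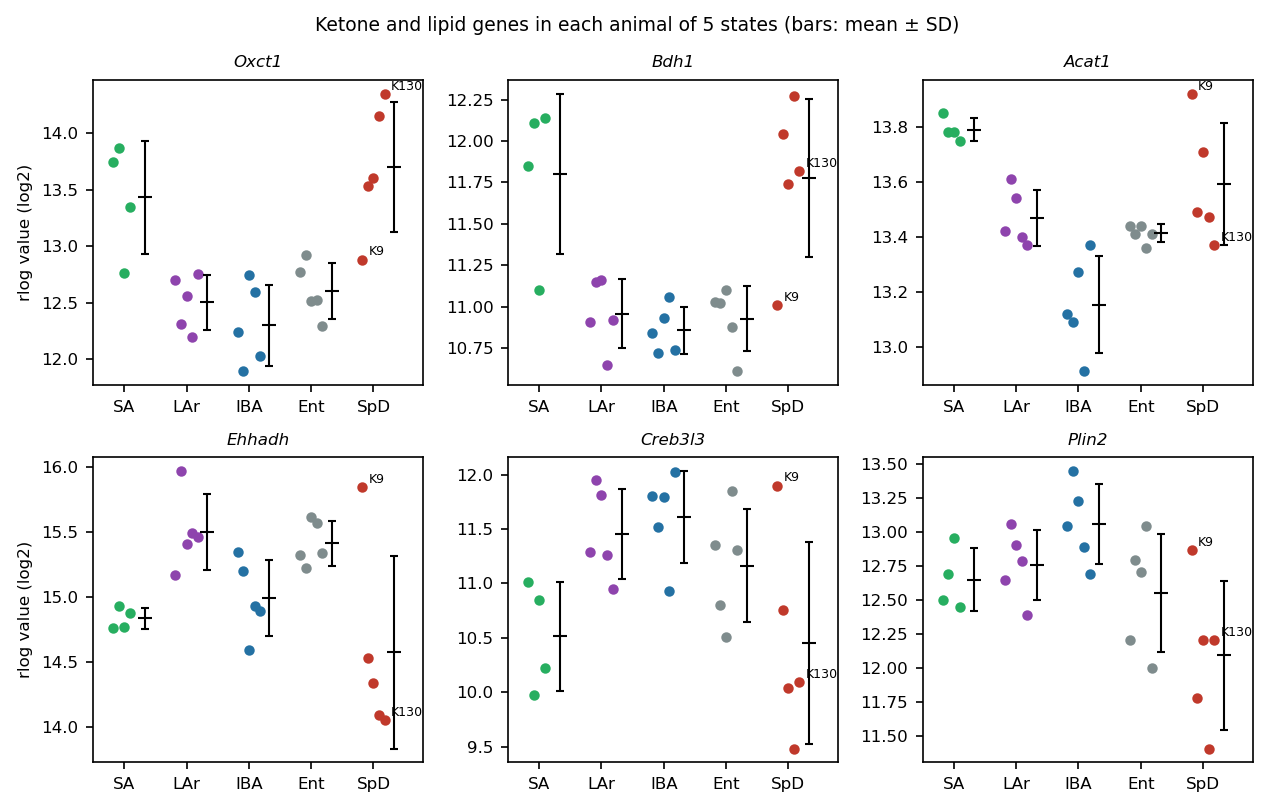
Each panel shows the rlog value (log2 scale, vertical) of 1 ketone or lipid gene in each animal of 5 states, with bars for mean ± SD, K9 and K130 named, and 4 animals in SA and 5 in each other state. In Oxct1 all SpD animals lie above the IBA animals, and in Ehhadh K9 lies at 15.85 while the other SpD animals lie between 14.05 and 14.53.

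Other lipid genes were mixed. Acsl1, which activates long-chain fatty acids, was higher in SpD without overlap (0.66, q = 0.00039), and Hadhb, a subunit of the mitochondrial trifunctional protein, was lower (-0.36, q = 0.018, lost in 2 leave-outs). Of 27 genes of lipid synthesis, uptake, and storage, 5 were higher (18.5%) and 1 lower (3.7%), and 3 and 1 without K130. Lpl, the lipase that frees fatty acids from circulating triglyceride, averaged 11.52 ± 0.76 over SpD (SD, n = 5) against 9.93 ± 0.74 over IBA (1.59, q = 0.0089). Fabp3, a fatty acid carrier, differed by 1.13 (q = 0.0001) and Pnpla3, a lipase of lipid droplets, by 1.20 (q = 0.0074). Dgat2, which makes triglyceride, differed by -1.15 (q = 0.028, lost in 6 leave-outs). Of 23 cholesterol genes, 4 were higher (17.4%) and none lower, and 3 without K130, led by Hmgcs1, the cytosolic synthase at the head of the pathway (0.86, q = 0.0029), with Tm7sf2 (0.66, q = 0.00052) and Ebp (0.57, q = 0.00052) farther down it.

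Enzymes that break down branched-chain amino acids were higher in SpD. Of 25 enzymes, 15 were higher in SpD at q under 0.05 (60%, against 6.48% of all genes) and none was lower, and 18 were higher without K130. The median difference was 0.35, and no called change reached 2-fold.

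Bcat2, which removes the amino group in the first step, read 10.73, 11.40, 11.12, 11.26, and 12.15 in K9, K3, K6, K84, and K130. In IBA it read 10.47, 10.31, 10.56, 10.72, and 10.51 in K4, K7, K1, K104, and K171. The groups met between K9 (10.73) and K104 (10.72) without overlapping (0.82, q = 0.0022). The committed step is that of the branched-chain ketoacid dehydrogenase. Its subunits Bckdha (0.34), Bckdhb (0.39), Dbt (0.48), and Dld (0.21) were all higher, and so was Ppm1k (0.63, q = 0.01), the phosphatase that switches it on. Bckdk, the kinase that switches it off, did not pass (-0.08). Farther down, Ivd of the leucine branch read 12.38 to 13.04 in SpD and 11.72 to 12.15 in IBA (0.79, q = 0.00011). Acad8 and Hibch of the valine branch (0.50 and 0.34) and Pcca, Pccb, and Mut of propionate breakdown (0.50, 0.37, and 0.47) were also higher. Aldh6a1 and Mccc2 had estimates of 0.40 and 0.36 without passing the test.

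**Figure D4:**
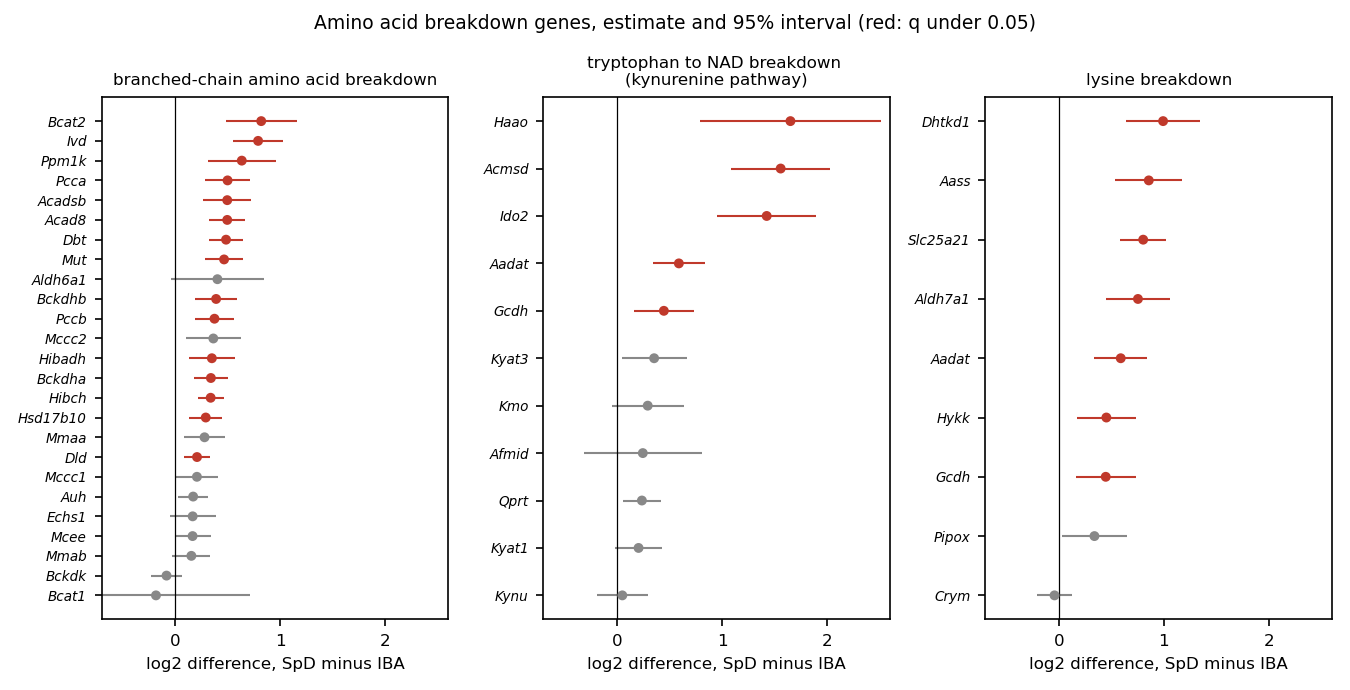
Points are log2 differences (SpD minus IBA, horizontal) of every measured member of 3 amino acid breakdown lists, lines are 95% intervals, and red marks q under 0.05. The line of Bcat1, whose interval is -1.08 to 0.72, is cut at the left edge. Among branched-chain genes the 15 red members lie between 0.21 and 0.82, and the lysine and kynurenine lists were chosen after seeing values.

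Other amino acid enzymes were higher in SpD too. Of 31 genes of tyrosine, arginine, glycine, and urate metabolism, 8 were higher (25.8%) and 1 lower (3.23%), against 19 and 1 without K130. Gpt, which moves the amino group of alanine, averaged 11.30 ± 0.33 over SpD (SD, n = 5) against 10.47 ± 0.14 over IBA (0.84, q = 2.8e-05), and no SpD value (10.87 or more) reached down to the IBA range (10.60 or less). Hgd, an enzyme of tyrosine breakdown, read 8.41, 7.96, and 7.32 in K3, K6, and K84, but 6.37 in K9 and 6.46 in K130, against 5.91 to 6.18 in IBA (1.28, q = 0.004). A transcript similar to proline dehydrogenase (PRODH_like) was highest in K130 (11.84) and differed by 0.91 (q = 0.0048). Ass1, which makes the precursor of arginine, was 15.23 to 15.50 in 4 SpD animals and 13.87 in K130, against 13.57 to 14.65 in IBA (0.88, q = 0.018), and its call was lost without K104 or K7. Odc1, the enzyme that opens polyamine synthesis, was the decrease (-0.51, q = 0.0019). Psat1 of serine synthesis was higher (0.68, q = 0.00045).

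Single enzymes at the edge of these pathways were among the largest increases. Acmsd (gene199), which steers tryptophan breakdown away from NAD synthesis, read 10.57, 11.07, 10.93, 11.56, and 10.74 in K9, K3, K6, K84, and K130, and 9.52, 8.89, 9.94, 9.56, and 9.16 in K4, K7, K1, K104, and K171. All SpD animals lay above all IBA animals (1.56, SE 0.23, q = 0.00013). Abat (gene10378), the transaminase of the transmitter GABA, averaged 13.38 ± 0.32 over SpD (SD, n = 5) against 12.28 ± 0.24 over IBA (1.1, q = 2.1e-05).

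Transporters of the proximal tubule were higher in SpD in 9 of 39 cases (23.1%) and lower in 1 (2.56%), and in 15 and 1 without K130. Slc6a20 (gene20356), a carrier of proline and its relatives, read 8.93, 9.40, 9.46, 10.41, and 9.66 in K9, K3, K6, K84, and K130, against 8.10, 6.94, 8.47, 8.15, and 7.45 in K4, K7, K1, K104, and K171. The lowest SpD animal (K9) lay above the highest IBA animal (K1), with a difference of 1.75 (SE 0.30, q = 0.00062). Slc6a18, a carrier of neutral amino acids of the late proximal tubule, differed by 1.83 (SE 0.47, q = 0.012), and Slc9a3, the sodium-proton exchanger of the brush border, by 0.67 (q = 0.02, lost in 3 leave-outs). Abcc2, an export pump of conjugated compounds, was the decrease, at 11.10 ± 0.53 (SD, n = 5) in SpD and 12.06 ± 0.34 in IBA (-0.97, q = 0.0064).

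None of the 10 proximal tubule markers themselves passed q under 0.05 in all animals, whereas 5 were higher without K130. Their median difference was 0.30, and 0.64 without K130. The corresponding medians were 0.35 and 0.42 in branched-chain amino acid breakdown and 0.21 and 0.46 among proximal tubule transporters. In tyrosine, arginine, glycine, and urate metabolism they were 0.32 and 0.50. The part of the tissue piece in these lists was not tested. For glucose, 5 of 30 genes were higher (16.7%) and 1 lower (3.33%), against 10 and 1 without K130. SLC5A1, the sodium-glucose carrier of the late proximal tubule, was higher by 1.0 (q = 0.01), and Pck2, the mitochondrial enzyme of glucose synthesis, by 0.68 (q = 0.011). Ldha, a subunit of lactate dehydrogenase, was lower (-0.44, q = 0.0099).

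In the lists of thick limb and distal tubule and of collecting duct genes, the called members were all higher. In thick limb and distal tubule, 5 of 29 were higher (17.2%), and 7 without K130. Slc8a1, the sodium-calcium exchanger, read 10.06, 11.32, 11.16, 11.17, and 8.55 in K9, K3, K6, K84, and K130 and 8.68 to 9.50 in IBA (1.36, q = 0.01). Only K130 fell below the IBA range, and without it the difference was 1.87 (q = 2.0e-05). Kcnj1, the potassium channel of the thick limb, was in contrast highest in K130 (14.44) and differed by 0.73 (q = 0.017), or 0.45 without K130 (q = 0.041). In the collecting duct, 5 of 35 were higher (14.3%), and 4 without K130. Slc26a7, an anion transporter, differed by 0.95 (q = 0.0039). The epithelial sodium channel subunit Scnn1g differed by 0.70 (q = 0.02) and was not called without K130 (q = 0.052) or K7. Its partner Scnn1a differed by 0.48 (q = 0.04) and lost its call in 7 of 10 leave-outs. Slc14a2, the urea transporter of the inner medulla, ran from 8.38 to 12.99 in SpD and from 6.67 to 12.24 in IBA and did not pass (1.30, q = 0.41).

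Regulators of blood pressure and mineral balance were higher in 7 of 23 cases (30.4%) and lower in none, and in 9 without K130. A transcript similar to ACE, which makes angiotensin II, differed by 0.90 (ACE_like, q = 0.0063), and the angiotensin receptor Agtr1 by 0.84 (q = 0.016), or 0.56 without K130 (q = 0.051). Klk1, the kidney's kinin-releasing protease, was 13.83, 14.23, and 14.18 in K3, K6, and K84 but 11.86 in K9 and 12.09 in K130, within the IBA range of 11.27 to 12.62 (1.42, q = 0.042, lost in 7 leave-outs).

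Enzymes that modify foreign compounds, hormones, and vitamins were higher in 19 of 67 cases (28.4%) and lower in 1 (1.49%), and in 27 and 1 without K130. Many come from families of close copies, and those whose names end in like or containing were named by similarity, so reads may have been shared between copies. Aldh1a1 (gene7590), which makes retinoic acid from retinal, read 11.02, 12.16, 11.59, 12.40, and 11.99 in K9, K3, K6, K84, and K130, and 9.85 to 10.42 in IBA (1.72, SE 0.26, q = 0.00022). No IBA animal reached the lowest SpD animal, K9. The glutathione transferase GSTA2 had the largest increase of the list, with 10.30 to 13.25 in SpD and 8.31 to 9.48 in IBA (2.53, SE 0.58, q = 0.0063), and GSTM2_containing was 14.55 ± 0.43 (SD, n = 5) and 13.48 ± 0.17 (1.07, q = 4.9e-05). AKR1C3_like, a reductase of steroids and prostaglandins, had among the lowest q of all increases (0.71, SE 0.08, q = 1.3e-05). Aldh1l1, a folate enzyme, differed by 0.97 (q = 0.00051) with K130 (12.77) inside the IBA range, and FMO1_gene3727, a flavin monooxygenase, by 1.03 (q = 0.00052). CYP2S1_like was the decrease (-0.92, q = 0.0065).

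**Figure D5:**
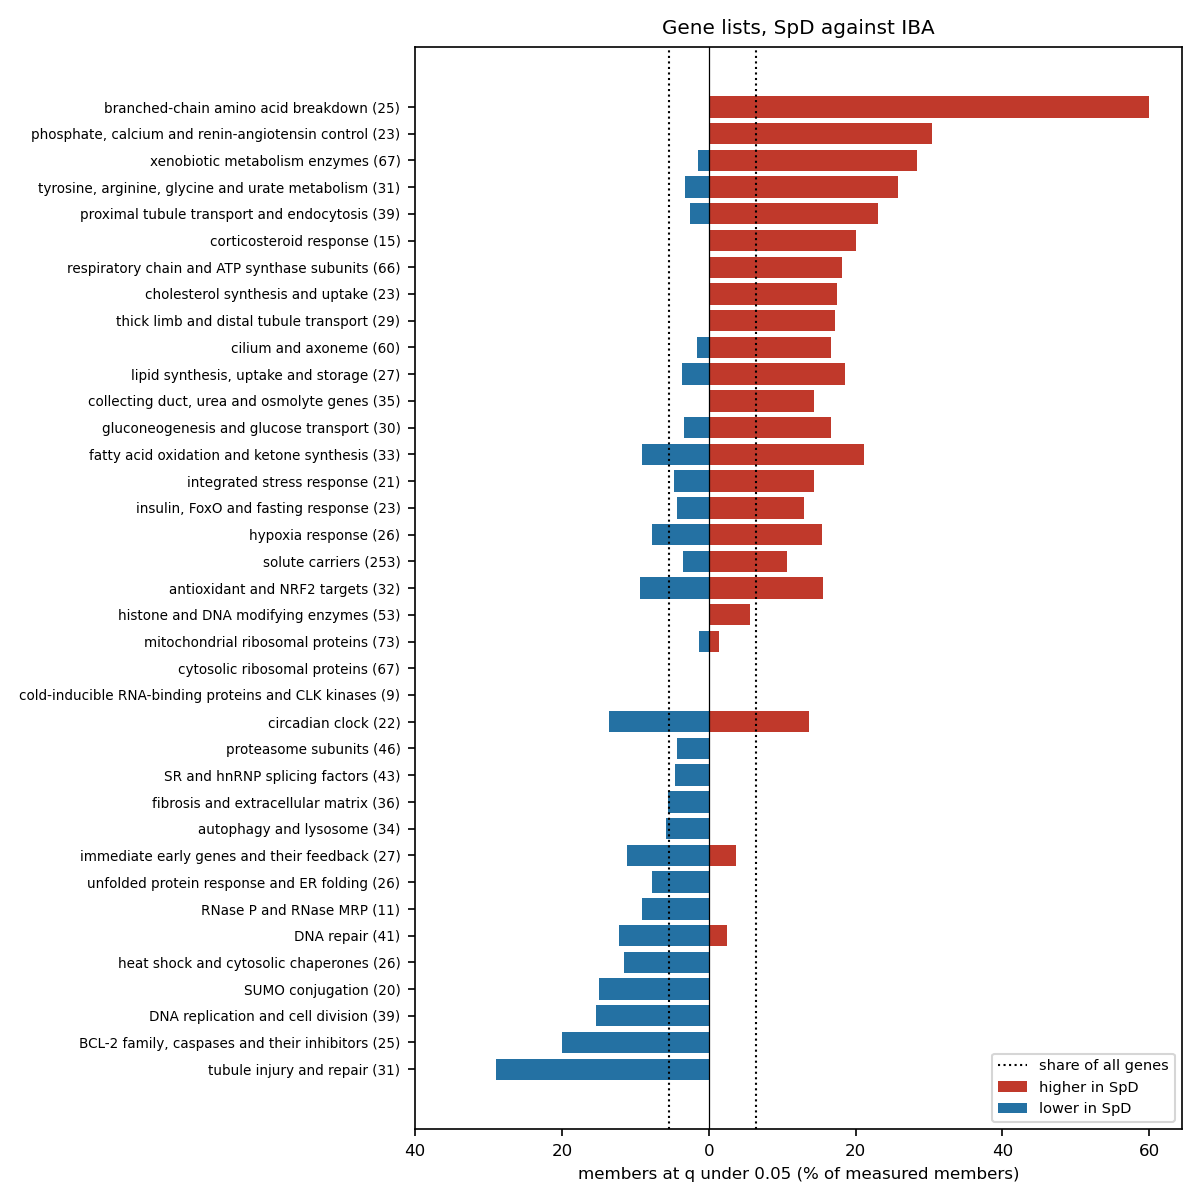
Bars give, for 37 gene lists with the number of measured members in brackets, the percentage of members at q under 0.05 that were higher (red, right) or lower (blue, left) in SpD, and dotted lines mark the share over all genes (6.48% and 5.42%). Branched-chain amino acid breakdown reaches 60% higher and tubule injury and repair 29% lower, while cytosolic ribosomal proteins have no called member.

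The remaining large increases were of genes without a shared list. Mei1, a meiosis gene, differed by 1.86 (q = 2.8e-05), Sorcs1, a sorting receptor, by 1.73 (q = 0.00045), and Mlc1, a membrane protein known from astrocytes, by 1.33 (q = 9.0e-05). Pdzd2, a PDZ scaffold, differed by 1.18 (q = 6.0e-05) and Fat3, a giant cadherin, by 1.17 (q = 0.00062). Bex3, an adaptor in death signalling of the neurotrophin receptor, was the steadiest of these, at 10.75 to 11.26 in SpD and 10.35 to 10.48 in IBA (0.58, SE 0.07, q = 1.9e-05). Each of the 6 kept q under 0.05 whichever of the 10 animals was left out. The largest changes were named among genes whose groups did not overlap (6.51% of all genes, 3.2% with SpD higher and 3.31% with SpD lower), so their separation was part of the choice.

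Some mitochondrial and ciliary genes were higher. Of 66 subunits of the respiratory chain and ATP synthase, 12 were higher (18.2%) and none lower, and 14 without K130, with a median of 0.18 and no member beyond 0.43. Ndufv1 of complex I averaged 14.17 ± 0.08 over SpD (SD, n = 5) against 13.74 ± 0.14 over IBA without overlap (0.43, q = 0.00076). Sirt3, the mitochondrial deacetylase, was 10.27 ± 0.09 and 9.81 ± 0.11 (0.46, q = 0.0003). Of 60 genes of cilium and axoneme, 10 were higher (16.7%) and 1 lower (1.67%), with the same counts without K130. Dnah17, a dynein heavy chain of motile axonemes, led them at 1.20 (q = 0.0003). Its levels were low, at 6.81 to 7.58 in SpD and 5.80 to 6.07 in IBA. Hdac6, a tubulin deacetylase, was higher by 0.60 (q = 0.0047).

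Called genes of cell death were all lower, by small amounts. Of 25 genes of the BCL-2 family, caspases, and their inhibitors, 5 were lower (20%) and none higher, and 4 without K130. They included promoters of death, namely Bcl2l11 (-0.39, q = 0.0043) and Bax (-0.37, q = 0.0047), and the protector Bcl2 (-0.41, q = 0.047), which lost its call in 7 of 10 leave-outs. The pore-former Bak1 did not pass (-0.26, q = 0.12).

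Sqstm1, the autophagy receptor p62, read 13.09 to 13.37 in SpD and 13.73 to 14.10 in IBA (-0.62, q = 0.00017). It was 1 of 2 lower genes among 34 of autophagy and lysosome (5.88%, against 5.42% of all genes). Srxn1, which repairs overoxidized peroxiredoxins, read 11.19 to 11.48 and 11.63 to 12.40 (-0.64, q = 0.00017). Both are targets of the stress regulator NRF2. Among 32 antioxidant and NRF2 genes, however, 5 were higher (15.6%) and 3 lower (9.38%), with Gclc (-0.28, q = 0.012) lower and Msra (0.55, q = 0.0016) higher.

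The immediate early genes had 3 lower members of 27 (11.1%) and 1 higher (3.7%). Jun averaged 10.77 ± 0.34 over SpD (SD, n = 5) against 11.52 ± 0.54 over IBA (-0.75, q = 0.0023) and overlapped, since K9 and K3 lay above the IBA animals of experiment 2. Within each experiment the groups were apart, at 10.85 to 11.09 against 11.80 to 12.04 in experiment 1. In experiment 2 they read 10.26 to 10.60 against 10.93 to 10.94. In LAr Jun was 12.63 ± 0.30 (n = 5). Myc (-0.57, q = 0.02) lost its call in 3 leave-outs, MAFF_like (-0.76, q = 0.034) in 6, and Nr4a1 (0.66, q = 0.041) in 8. In the unfolded protein response 2 of 26 were lower (7.69%, against 5.42% of all genes), Dnajb9 (-0.48, q = 0.00073) and Manf (-0.43, q = 0.029). Xbp1 did not pass (-0.02, q = 0.96), with -0.51 (q = 0.059) in experiment 1 and 0.61 (q = 0.012) in experiment 2. Of 26 cytosolic chaperones 3 were lower (11.5%), among them Hspa4l (-0.40, q = 0.0059), and Hspa1b did not pass (0.07, q = 0.9).

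Clock genes went both ways, with 3 of 22 higher and 3 lower (13.6% each). Arntl, the core activator BMAL1, read 9.02, 9.0, 9.87, 9.77, and 9.8 in K9, K3, K6, K84, and K130 and 8.21 to 8.95 in IBA (0.93, q = 0.0066). Nfil3 (0.70, q = 0.0027) was also higher. Bhlhe41 (-0.65, q = 0.01) and the repressor Nr1d2 (-0.53, q = 0.018, lost without K84) were lower. The clock hour of collection was not analysed here.

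Called genes of cell division and DNA repair were nearly all lower, whereas scarring genes were called lower at about the share of all genes. Of 36 fibrosis and matrix genes 2 were lower (5.56%, against 5.42%) and none was higher. These were the integrin Itgb6 (-0.72, q = 0.0023) and the TGF beta receptor Tgfbr1 (-0.40, q = 0.008). Most estimates of that list went the other way, with 25 positive, 11 negative, and a median of 0.16. In DNA replication and cell division 6 of 39 were lower (15.4%) and none higher, with Pole (-0.37, q = 0.012) the largest, and in DNA repair 5 of 41 were lower (12.2%) and 1 higher (2.44%), with Rad51d (-0.46, q = 0.0032) the largest. In the corticosteroid list 3 of 15 were higher (20%) but none without K130. Its leading gene Tsc22d3, a glucocorticoid target, was 12.44 in K130 against 10.40 to 10.88 in the other SpD animals (0.79, q = 0.048; 0.38 without K130, q = 0.13).

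A further set of lists had at most 2 called members each. None of 67 cytosolic ribosomal protein genes passed the test, with estimates from -0.22 to 0.01 and a median of -0.10. Of 73 mitochondrial ribosomal protein genes 1 was higher and 1 lower (1.37% each). Of 46 proteasome subunits 2 were lower (4.35%), and of 43 splicing factors 2 were lower (4.65%), against 5.42% of all genes. None of 9 cold-inducible RNA-binding proteins and CLK kinases passed, and 1 was higher without K130. Of 11 genes of RNase P and RNase MRP 1 was lower (9.09%). The RNA subunit of RNase P (RNaseP_nuc_ENSSTOG00000018579) did not pass (-0.06, q = 0.87) and followed the experiment, with 5.99 to 6.46 in the 6 animals of experiment 1 and 4.48 to 4.87 in the 4 of experiment 2.

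In the model of only the 10 SpD and IBA animals, 2.32% of all genes were higher and 1.07% lower at q under 0.05, and every list with at least 5 called members in 1 direction had fewer called there. Lower genes numbered 5 of 31 in tubule injury and repair, 1 of 25 in the BCL-2 family, 1 of 41 in DNA repair, and none of 39 in DNA replication. Higher genes numbered 5 of 25 in branched-chain amino acid breakdown, 11 of 67 among enzymes of foreign compounds, 5 of 39 among proximal tubule transporters, 5 of 60 in cilium and axoneme, and 4 of 33 in fatty acid oxidation and ketone metabolism. They numbered 3 of 31 in tyrosine, arginine, glycine, and urate metabolism, 3 of 23 among regulators of blood pressure and mineral balance, 2 of 29 in thick limb and distal tubule, 2 of 27 in lipid synthesis, uptake, and storage, 2 of 66 in the respiratory chain, and 1 of 32 among antioxidant genes. None of the 30 glucose genes and none of the 35 collecting duct genes was called in that model.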

How the data were processed

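The 31 kidneys were sequenced by the authors in 2 experiments with different library kits. Per the labels and the methods, polyadenylated RNA was read, trimmed with cutadapt, filtered for mitochondrial reads with HISAT2, and quantified with Salmon against the squirrel's own annotation. The authors kept genes with an rlog value of at least 7 in at least 4 animals of a group, computed rlog values in DESeq2, and took out the experiment effect by limma. What was deposited is thus log2, with 1 column per animal and 12863 genes, and holds neither counts nor depth. Their precision is thus that of the spread between animals. After that step the experiment means were equal over all 31 animals, although the experiments hold different states.

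The study's test of counts could not be used. Instead a limma model (version 3.58.1, R 4.3.3) was run on the deposited values of the 29 animals the study kept, which leaves out 2 of the 31 (IBA 5, SpD 5), with state, sex, and experiment as terms, an intensity trend, and 2-sided Benjamini-Hochberg adjusted p-values (q) over all genes. The thresholds were q under 0.001, the study's, and q under 0.05 for list members. The model was tested on simulated data with normal noise of equal spread in every animal and 200 genes changed by a known log2 difference. At q under 0.001 and 0.05 it found 41.5% and 67% of genes changed by 0.5. Of those changed by 1 it found 89% and 95.5%. A gene that did not pass may therefore still differ by 0.5. Values given per state are means of the table. Plots used matplotlib 3.10.9 (Python 3.11.15).

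Named genes are the 12 largest increases and decreases at q under 0.001 with a symbol and no overlap between groups, the 3 lowest q in each direction, of each of 37 lists up to 4 members per direction at q under 0.05 and the 2 of highest level, and genes the paper names. As run, the rule gave 305 genes. They include uncalled members, because a list without a called member in a direction gave up to 4 uncalled ones there. Which of the 305 to print was decided with their values in view. Of the 136 genes described in detail, 108 come from these 305. The other 28 were chosen after their values were seen, namely Krt8, Krt18, Sox9, Acad8, Dbt, Hibch, Agtr1, Aldh1l1, Creb3l3, Slc9a3, Slc14a2, and members of the lists added after seeing values. Further members of the branched-chain list are given by their difference alone. The members and lists were chosen with earlier results of these data known, and 5 lists were added after seeing values. List counts carry no test of the list. Lists overlap in some genes. The alternatives were all 31 animals, only the 10 compared, no term for experiment or sex, each experiment alone, no trend, a robust prior, animal weights, a mean of at least 8, a common median, q under 0.01, and each of the 10 animals left out. Gene positions and sequences were not used here, and a few items are not reported here.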

Additional observations from a re-analysis of the deposited data

Results flagged for a closer look

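Of 294 groups of 5 animals examined (genes of the text and marker means, in SpD and in IBA), 18 held an animal whose gap to its nearest neighbour was over 0.71 of the group's range. Chance flags about 1 in 20 such groups, and 13 of the 18 were K130. The cause was not tested.

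K130 was low in 10 of its 13 cases. It read 12.53 in Aass (13.28 to 13.58 in the other SpD animals), 13.13 in Aldh7a1 (13.95 to 14.23), 10.08 in Hykk (10.75 to 10.94), 6.04 in Ido2 (7.40 to 7.95), 13.87 in Ass1 (15.23 to 15.50), and 12.77 in Aldh1l1 (13.59 to 13.76). It was also low in Msra (13.25, against 13.91 to 14.17) and Cd79a (7.85, against 9.71 to 10.06). Its mean over distal convoluted tubule markers was 10.1 (11.73 to 12.23 in the others) and its mean over podocyte markers 10.37 (11.72 to 11.89). K130 was high in Scnn1g (12.58, against 11.90 to 12.08), PRODH_like (11.84, against 10.42 to 10.80), and Tsc22d3 (12.44, against 10.40 to 10.88).

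K9 was high in Ehhadh (15.85, against 14.05 to 14.53) and in Cgref1 (7.86, against 7.18 to 7.34). In IBA, K7 was high in C1qa (9.18, against 8.06 to 8.33) and low in Aadat (11.74, against 12.27 to 12.43), and K1 was low in Rad51d (8.28, against 8.75 to 8.86).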

How the results depend on the processing

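The count of 161 genes at q under 0.001 was 67 in all 31 animals, 415 with animal weights, 594 at q under 0.01, and 0 with only the SpD and IBA animals, with experiment 1 only, and with experiment 2 only, where 2698, 2294, and 3206 genes had an unadjusted p under 0.05. It ranged from 54 (without K7) to 198 (without K130) as each animal was left out, moving over 1.5-fold without K1 (98), K3 (58), K4 (74), K6 (71), K9 (103), K84 (94), or K104 (77). The count of 1531 at q under 0.05 was 996, 2978, 435, 258, and 968 with all 31, weights, the 10 animals, experiment 1, and experiment 2, and 1026 (without K3) to 1795 (without K130) in the leave-outs. Under no other setting did either count move over 1.5-fold. With the common median 860 genes were higher and 636 lower. Without K9 and K130 together, a setting chosen after seeing the data, the counts were 150 and 1479.

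No gene of the text that was called at q under 0.05 changed direction under any of these settings. Of these 124 genes, 72 stayed called with only the 10 animals, 42 in experiment 1, 63 in experiment 2, 106 in all 31, and 104 to 117 in the leave-outs. Of the 12 genes that were not called, Xbp1 passed in experiment 2 (q = 0.012), Bak1 with weights (-0.38, q = 0.013), Cd79a without K130 (q = 0.035), Ehhadh without K9 (q = 0.011), Cd79a and Ehhadh without both (q = 0.028 and 0.031), C1qa without K84, K104, or K171, and Lcn2 and Dcdc2 without K171. Some that were not called changed sign, as follows. In experiment 1 these were Hspa1b (-0.196), Slc14a2 (-0.051), and Ehhadh (0.0874). In experiment 2 they were Xbp1 (0.606), Cd79a (-0.252), C1qb (0.0328), RNaseP_nuc_ENSSTOG00000018579 (0.312), and Sema5a (0.134). Hspa1b was -0.0337 with weights, -0.193 without K9 and K130, and -0.15, -0.0822, and -0.0421 without K7, K130, and K171. Xbp1 was 0.0945, 0.0323, 0.0615, 0.011, and 0.0759 without K1, K7, K3, K6, and K9. Sema5a was 0.0676, 0.0156, 0.0586, and 0.0878 without K1, K171, K4, and K84, and Cd79a was -0.0239 without K84. The cause was not tested. No paired analysis was possible because every kidney came from a different animal and the replicate numbers follow accession order. The planned comparison of promoter windows was not run, since no sequences were used. Depth is unknown, and with 5 animals a group the median standard error was 0.0975.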

Other observations

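The lists below were chosen after seeing values and carry no test of the list. Lysine breakdown had 7 of 9 genes higher in SpD (77.8%, against 6.48% of all genes) and none lower, and 8 without K130. Its first enzyme Aass read 13.30, 13.34, 13.58, 13.28, and 12.53 in K9, K3, K6, K84, and K130, and 12.32, 11.83, 12.84, 12.24, and 12.52 in K4, K7, K1, K104, and K171 (0.86, q = 0.00094). K1 alone among the IBA animals lay above K130. Dhtkd1, part of the 2-oxoadipate dehydrogenase, differed by 0.99 (q = 0.00062), Slc25a21, the mitochondrial carrier of that intermediate, by 0.80 (q = 4.5e-05), and Aldh7a1 by 0.75 (q = 0.0022). Gcdh (0.45, q = 0.036) and Hykk (0.45, q = 0.03) lost their calls in 7 and 6 of 10 leave-outs.

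In the kynurenine pathway, which breaks down tryptophan, 5 of 11 were higher (45.5%) and 8 without K130. Ido2, an enzyme at its entry, read 7.49, 7.95, 7.72, 7.40, and 6.04 in K9, K3, K6, K84, and K130, against 5.49 to 6.25 in IBA (1.42, q = 0.00033). In SA, where all animals were in experiment 2, it was 8.66 ± 0.32 (SD, n = 4). Haao, which precedes Acmsd, differed by 1.65 (q = 0.011) and Aadat by 0.59 (q = 0.0027). Of 9 genes of GABA and beta-amino acid breakdown 4 were higher (44.4%), among them Etnppl, which breaks down phosphoethanolamine, at 10.11 ± 0.46 (SD, n = 5) in SpD and 8.10 ± 0.60 in IBA (2.01, q = 0.0018), and Agxt2 (0.90, q = 0.00022).

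Genes of branched actin and actin turnover were lower in 10 of 24 cases (41.7%, against 5.42%) and higher in none, with the same count without K130. Actr3, a core subunit of the Arp2/3 complex that branches filaments, read 11.68 to 11.89 in SpD and 12.14 to 12.54 in IBA (-0.50, q = 9.3e-05). Arpc1b of the same complex (-0.64, q = 0.0027), TWF2 (-0.59, q = 0.00016), and Coro1c (-0.43, q = 0.00076) were lower too. Coro1a (-0.87, q = 0.016), known mainly from blood cells, and Tmsb10 (-0.50, q = 0.014) lost their calls without K7. Of the 124 called genes of the text, 20 lost their call without that animal. K7 was also the IBA animal with the highest macrophage marker mean (9.04), and the part of these cells was not tested. Over these 24 genes the mean was 11.51 to 11.70 in SpD and 11.73 to 12.04 in IBA, a direction that the choice of the list fixes. With only the 10 animals 3 of the 24 were lower, and 4 of 9 lysine and 2 of 11 kynurenine genes were higher. So were 4 of 9 genes of the GABA and beta-amino acid list, Etnppl among them.

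Of 253 solute carriers, 27 were higher (10.7%) and 9 lower (3.56%), and 36 and 12 without K130, and 12 and 5 with only the 10 animals. The integrated stress response had 3 of 21 higher (14.3%) and 1 lower (4.76%), the insulin, FoxO, and fasting list 3 of 23 (13%) and 1 (4.35%), and the hypoxia response 4 of 26 (15.4%) and 2 (7.69%). Histone and DNA modifying enzymes had 3 of 53 higher (5.66%) and none lower, and SUMO conjugation none of 20 higher and 3 lower (15%). Among PPAR alpha targets, a list chosen after seeing values, 2 of 19 were higher (10.5%) and 4 lower (21.1%).

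Among cell type markers, 2 of 8 endothelial genes were higher (25%, against 6.48% of all genes). So was 1 each of 5 of the loop of Henle (20%), 6 of collecting duct principal cells (16.7%), and 6 of intercalated cells (16.7%). Of 7 inner medulla and thin limb markers 1 was higher and 1 lower (14.3% each). These shares rest on 1 or 2 genes each. No marker of podocytes (6), distal convoluted tubule (3), fibroblasts and pericytes (8), smooth muscle (5), or red blood cells (2) passed q under 0.05, and without K130 2 podocyte and 2 distal convoluted tubule markers and the B cell gene Cd79a (0.58, q = 0.035) were higher.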
